A study of Mus musculus with 22 samples.

Results

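Enzymes that break down amino acids and pyrimidines, together with the kidney's arginine, creatine, polyamine and glutamine synthetic enzymes, were followed in mouse kidneys after ureteral obstruction. The module holds 49 genes, listed by symbol, and a gene entered the analysis through the array probes annotated to that symbol. Of the 49 genes, 47 were measured and tested among 17039 genes in all, through 70 of their 72 annotated probes. Amt, the T protein of the glycine cleavage system, and Mat2a, which makes S-adenosylmethionine, are not analysed here.

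All animals were C57BL/6 mice, and the labels give neither age nor sex. In obstructed mice the left ureter was ligated, which blocks the outflow of urine. In sham mice the same ureter was dissected free without a ligature. Kidneys were taken 1, 2, 5 and 9 days after the operation, with 3, 3, 3 and 4 obstructed replicates and 2 sham replicates at each of the 4 days. Cy5-labelled kidney RNA was put on a 2-colour oligonucleotide array with a Cy3-labelled mouse universal reference RNA. A value is therefore a log2 ratio of kidney over reference RNA, and the probe of one gene is not set against that of another. The direction of the ratio follows the dyes in the labels, and the labels state no log base, which was taken from the range of values. Nothing in the labels says how animals were housed or pooled, so p-values measure the spread between these RNA samples.

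The proximal tubule reabsorbs nearly all filtered amino acids and carries much of the kidney's amino acid metabolism. It makes arginine from citrulline and guanidinoacetate from arginine and glycine, and it breaks down glutamine, proline, glycine, serine and the branched-chain amino acids, largely in mitochondria. Pyrimidine bases are degraded by a short pathway of reduction, ring opening and release of beta-alanine, in liver and kidney.

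Promoter letters are shown first for 3 members that frame the result: Pcbd1 and Haao, which were lower in obstructed kidneys, and Agxt2, which was not called. Each window runs from 250 bases before to 50 after a RefSeq transcript start, 5′ to 3′ on the gene's strand, from the RefSeq table on GRCm38.p6. Capitals mark a motif match. In Pcbd1 (chr10:61089081-61089380, plus strand) and in Haao (chr17:83846741-83847040, minus strand) they mark GTTAAT, part of the site of the tubular factor HNF1, read on the reverse strand in Haao. In Agxt2 (chr15:10358283-10358582, plus strand) they mark CAAAGTCCA, a form of the HNF4 site.
Pcbd1: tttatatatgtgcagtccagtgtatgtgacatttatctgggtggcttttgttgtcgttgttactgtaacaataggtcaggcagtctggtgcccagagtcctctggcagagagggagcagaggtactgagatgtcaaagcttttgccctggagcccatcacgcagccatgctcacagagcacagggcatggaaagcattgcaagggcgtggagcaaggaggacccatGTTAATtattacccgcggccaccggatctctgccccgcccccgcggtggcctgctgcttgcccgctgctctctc
Haao: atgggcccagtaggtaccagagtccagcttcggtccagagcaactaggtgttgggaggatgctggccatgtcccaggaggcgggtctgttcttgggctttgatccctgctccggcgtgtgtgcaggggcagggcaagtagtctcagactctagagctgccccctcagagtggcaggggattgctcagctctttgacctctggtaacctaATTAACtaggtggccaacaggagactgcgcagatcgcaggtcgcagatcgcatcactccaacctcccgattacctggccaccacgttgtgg
Agxt2: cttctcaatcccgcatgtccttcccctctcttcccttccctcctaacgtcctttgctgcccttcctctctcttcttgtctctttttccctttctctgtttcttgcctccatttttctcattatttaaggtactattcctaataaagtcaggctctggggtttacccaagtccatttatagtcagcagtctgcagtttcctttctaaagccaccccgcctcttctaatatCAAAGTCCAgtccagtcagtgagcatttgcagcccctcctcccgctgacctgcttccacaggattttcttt
The match starts 24 bases before the transcript start of the window in Pcbd1, 41 in Haao and 21 in Agxt2. That start is the outer end of the annotated gene in Pcbd1, but lies 17 bases inside it in Agxt2 and 2191 bases inside it in Haao, where it is an inner start. Both strands of 49 windows of 43 members and of all 32851 windows in the table were searched. GTTAAT was in 5 member windows, 10.2% against 7.1% of all windows, in Bckdhb, Got2, Haao, Pcbd1 and Prodh2. CAAAGTCCA was in 4.08% of member windows against 0.475% of all, but both of those windows belong to Agxt2 and overlap at the same site. TGATGNAAT, the composite site of the stress factor ATF4, was in 0 member windows against 0.965% of all, and TGACTCA, the AP-1 site, was in 1, that of Hpd, which is 2.04% against 5.2%. In these windows no match of one motif overlapped a match of another. A match is a description of letters and not a shown binding site.

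Of 45220 spots, between 35747 and 39871 carried a measured ratio on a given array. The number of arrays limits the precision. Replicates are named by the number in their labels, which also carry a letter, L or R, that is not explained there. All obstructed arrays carry L. The arrays with R, S03R, S06R and S39R, are all sham arrays of days 1 and 2. On those days the letter partly coincides with the operation, and counts with L arrays only are in the closing section. Values within a day are given in the order of these numbers. Differences are obstructed minus sham on the log2 ratio scale, ± the standard error of the fit. Of the 22 arrays, S03L and S03R share a number and were averaged to 1 sham day 1 replicate, which left 13 obstructed and 8 sham replicates. The obstructed day 9 replicate S09 stood apart from the other 3 obstructed day 9 replicates. Its array carried 35747 measured ratios, the fewest of any array, against 39068 to 39871 on theirs. The bearing of this on its values was not tested. S09 was above the other 3 in 42 of the 47 members (89.4%), and in 62.7% of the genes called lower at day 9. It was also below both sham day 9 replicates in 42 members, a count with no share of all genes beside it. Xist, the X-inactivation RNA, had log2 ratios of -6.32 to -4.41 in 10 replicates, 7 obstructed and 3 sham, and of 1.41 to 2.32 in the others. The Y-chromosome genes Eif2s3y and Uty ran the other way, at 0.11 to 2.57 and -0.06 to 1.99 where Xist was low. In the others they were at -8.63 to -5.03 and -3.03 to -1.39, a pattern of male and female kidneys. All day 2 replicates and no sham day 1 replicate were low in Xist, so day and sex partly coincide. S09 was the only day 9 replicate with a low Xist ratio. With Xist level as a block, a fit chosen after seeing the data, 44 members were called lower over days, with Kynu lost. The defining proximal tubule gene Lrp2, the receptor megalin, and the phosphate transporter gene Slc34a1 were measured, and the receptor gene Csf1r of macrophages is not analysed here. Values are ratios to the reference, so no marker has a level of zero.

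Nearly all measured members were lower in obstructed kidneys. Averaged over the 4 days, 45 of 47 members (95.7%) passed the test as lower and 0 as higher, at an adjusted p under 0.05 in a limma fit of all groups. Among all genes tested, 26.1% were called lower and 27.1% higher. The median difference over the members was -1.04 log2, against -0.01 over all genes. At least 2-fold lower were 24 members, against 3.23% of all genes. The 2 members that passed in neither direction were Arg2 and Agxt2.

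By day, 24 members were called lower at day 1, 25 at day 2, 30 at day 5 and 43 at day 9, and 0 higher on any day. Of all genes, 9.47% were called lower and 8.16% higher at day 1, 6.49% and 9.07% at day 2, 11.7% and 14.5% at day 5, and 20.3% and 21.3% at day 9. The members' median difference was -0.82 at day 1, -0.79 at day 2, -0.94 at day 5 and -1.45 at day 9. With only 2 sham replicates a day, single sham kidneys moved the daily counts. Without S06 the day 1 count was 8, without S08 or S39 the day 2 count was 10 or 16, and without S22 or S32 the day 5 count was 19. The day 9 count was 44 without S09. The shares of all genes called in these refits are not set beside the counts, so the shifts do not speak to the members alone.

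Members called lower on each of the 4 days numbered 18, against 3.45% of all genes. They were Ass1, Asl, Upb1, Hpd, Pcbd1, Gcsh, Shmt1, Shmt2, Prodh, Got2 and 8 of the 9 branched-chain and propionate enzymes, all but Pccb. In 31 members (66.0%) every obstructed replicate lay below every sham replicate of its day on all 4 days, against 8.87% of all genes. No member lay above on all 4 days, against 8.09% of all genes.

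**Figure D1:**
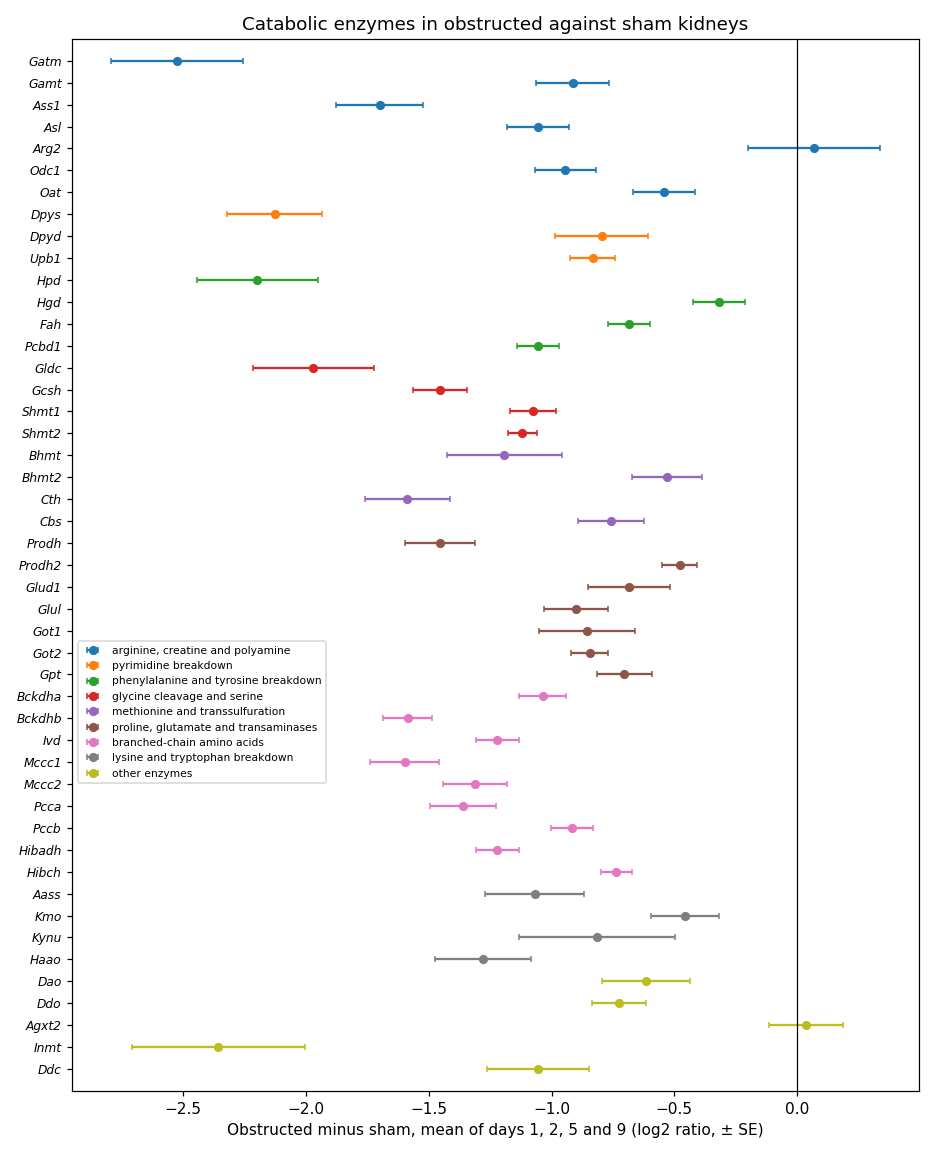
Difference between obstructed and sham kidneys averaged over days 1, 2, 5 and 9 (log2 ratio, x axis) for each of the 47 members (y axis), coloured by role. Points are limma estimates and bars their standard errors. Gatm at -2.52, Inmt at -2.36 and Hpd at -2.20 lie farthest below 0, and Arg2 and Agxt2 lie at 0.07 and 0.04.

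Of the 7 arginine, creatine and polyamine enzymes, 6 were called lower over days and Arg2 was not called. Ass1, argininosuccinate synthase, joins citrulline and aspartate in the first step of renal arginine synthesis. Ass1 had log2 ratios of 2.32, 1.76 and 2.18 at day 1, 2.22, 2.73 and 3.17 at day 2, 2.53, 2.34 and 2.69 at day 5, and 2.88, 1.58, 1.57 and 1.66 at day 9 in obstructed kidneys. Sham kidneys had Ass1 at 3.59 and 4.18 at day 1, 4.25 and 4.16 at day 2, 3.55 and 4.19 at day 5, and 4.07 and 4.08 at day 9. The groups did not overlap on any day, and the obstructed day 9 replicate S09 was the highest of its group. Ass1 differed by -1.70 ± 0.18 (adjusted p = 1.20e-06), a 3.25-fold lower ratio in obstructed kidneys.
Gatm makes guanidinoacetate, the precursor of creatine, from arginine and glycine. Gatm had log2 ratios of 1.19, 3.58 and 3.21 at day 1, 4.24, 4.02 and 4.49 at day 2, 3.52, 3.18 and 3.15 at day 5, and 3.87, 2.35, 2.30 and 2.35 at day 9 in obstructed kidneys. Sham kidneys had Gatm at 5.62 and 5.85 at day 1, 6.04 and 5.77 at day 2, 5.44 and 5.50 at day 5, and 5.94 and 5.86 at day 9. All obstructed replicates lay below all sham replicates, with S02 the lowest at day 1 and S09 the highest at day 9. Gatm differed by -2.52 ± 0.27 (adjusted p = 1.43e-06), the lowest mean difference of the 47 members, or 5.75-fold lower. Its day 2 difference of -1.65 missed the threshold (adjusted p = 0.0518).
Asl, argininosuccinate lyase, releases arginine in the next step after Ass1. Asl had log2 ratios of 1.85, 1.22 and 1.27 at day 1, 1.48, 1.60 and 1.95 at day 2, 1.25, 1.69 and 1.13 at day 5, and 1.34, 0.49, 0.78 and 0.72 at day 9 in obstructed kidneys. Sham kidneys had Asl at 2.04 and 2.43 at day 1, 2.70 and 2.46 at day 2, 2.08 and 2.40 at day 5, and 2.36 and 2.60 at day 9. No day overlapped, and the day 9 obstructed values were the lowest except for S09. Asl differed by -1.06 ± 0.13 (adjusted p = 4.79e-06).
Gamt methylates guanidinoacetate to creatine, and differed over days by -0.91 ± 0.15 (adjusted p = 8.57e-05), with calls at days 1 and 9. Odc1, ornithine decarboxylase, which starts polyamine synthesis, differed by -0.94 ± 0.12 (adjusted p = 1.14e-05). Oat, ornithine aminotransferase, differed by -0.54 ± 0.13 (adjusted p = 0.00194). Arg2, the mitochondrial arginase, had overlapping groups on every day, with differences of -0.23, 0.50, 0.23 and -0.23 at days 1, 2, 5 and 9 and 0.07 ± 0.27 (adjusted p = 0.85) over days. Its day 9 obstructed values spread widely, from 4.39 in S35 to 6.99 in S09.

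All 3 pyrimidine breakdown enzymes were called lower over days. Dpys, dihydropyrimidinase, opens the reduced pyrimidine ring. Dpys had log2 ratios of 2.0, 3.23 and 2.56 at day 1, 2.36, 1.30 and 1.49 at day 2, 0.81, 0.64 and 1.07 at day 5, and 1.23, 1.13, 0.34 and 1.16 at day 9 in obstructed kidneys. Sham kidneys had Dpys at 3.37 and 3.93 at day 1, 3.81 and 2.91 at day 2, 3.35 and 2.87 at day 5, and 4.60 and 4.41 at day 9. The groups did not overlap within any day, but the obstructed day 1 replicate S05 lay above the lower sham replicates of days 2 and 5. S35 was the lowest of the day 9 replicates. Dpys differed by -2.13 ± 0.19 (adjusted p = 2.66e-07), or 4.37-fold lower, and its day 9 difference of -3.54 was the lowest of any member on any day.
Upb1, beta-ureidopropionase, releases beta-alanine in the last step. Upb1 had log2 ratios of 6.87, 7.08 and 7.03 at day 1, 7.31, 6.90 and 6.84 at day 2, 6.66, 6.81 and 6.66 at day 5, and 6.60, 5.80, 6.03 and 6.14 at day 9 in obstructed kidneys. Sham kidneys had Upb1 at 7.76 and 7.65 at day 1, 7.62 and 7.80 at day 2, 7.33 and 7.29 at day 5, and 7.38 and 7.57 at day 9. No day overlapped, and Upb1 differed by -0.83 ± 0.09 (adjusted p = 2.14e-06). Dpyd, dihydropyrimidine dehydrogenase, the enzyme of the reducing step, differed by -0.80 ± 0.19 (adjusted p = 0.00219) over days and passed at day 9 alone, with overlapping groups at days 1 and 2.

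All 4 phenylalanine and tyrosine enzymes were called lower over days. Pcbd1 regenerates the tetrahydrobiopterin cofactor of phenylalanine hydroxylase and is also the dimerization cofactor of HNF1. Pcbd1 had log2 ratios of 2.18, 2.63 and 2.53 at day 1, 2.48, 2.49 and 2.65 at day 2, 2.30, 2.26 and 2.23 at day 5, and 2.27, 1.65, 1.61 and 1.78 at day 9 in obstructed kidneys. Sham kidneys had Pcbd1 at 3.27 and 3.36 at day 1, 3.60 and 3.41 at day 2, 3.23 and 3.24 at day 5, and 3.31 and 3.18 at day 9. Every obstructed value lay below every sham value. Pcbd1 differed by -1.05 ± 0.08 (adjusted p = 7.93e-08).
Hpd, 4-hydroxyphenylpyruvate dioxygenase, makes homogentisate in tyrosine breakdown. Hpd had log2 ratios of 2.72, 3.29 and 2.39 at day 1, 2.90, 2.14 and 2.63 at day 2, 2.91, 4.14 and 2.57 at day 5, and 3.04, 2.23, 3.70 and 2.44 at day 9 in obstructed kidneys. Sham kidneys had Hpd at 4.98 and 5.60 at day 1, 5.40 and 4.72 at day 2, 5.28 and 4.25 at day 5, and 4.94 and 5.24 at day 9. All obstructed replicates lay below all sham replicates, with S21 at day 5 closest to them. Hpd differed by -2.20 ± 0.24 (adjusted p = 2.28e-06), or 4.58-fold lower, and was called on all 4 days. Fah, fumarylacetoacetase, the final enzyme of tyrosine breakdown, differed by -0.69 ± 0.09 (adjusted p = 6.73e-06). Hgd, homogentisate dioxygenase between them, had the least negative difference of the called members at -0.32 ± 0.11 (adjusted p = 0.0186), passed at day 9 alone, and overlapped with sham at days 5 and 9.

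All 4 glycine and serine enzymes measured were called lower over days. Shmt2, the mitochondrial serine hydroxymethyltransferase, splits serine into glycine and a folate-bound carbon. Shmt2 had log2 ratios of -1.65, -1.66 and -1.55 at day 1, -1.67, -1.46 and -1.50 at day 2, -1.99, -1.78 and -2.03 at day 5, and -1.95, -2.33, -2.24 and -2.20 at day 9 in obstructed kidneys. Sham kidneys had Shmt2 at -0.59 and -0.57 at day 1, -0.54 and -0.71 at day 2, -0.98 and -0.80 at day 5, and -0.71 and -0.70 at day 9. The groups were far apart on every day, and the replicates of a group lay close together. Shmt2 differed by -1.12 ± 0.06 (adjusted p = 3.01e-09), with the smallest adjusted p of the members.
Gcsh is the H protein of the mitochondrial glycine cleavage system, which carries the lipoyl arm. Gcsh had log2 ratios of -0.87, -0.58 and -0.53 at day 1, -0.80, -0.43 and -0.35 at day 2, -0.82, -0.81 and -1.16 at day 5, and -0.92, -1.44, -1.40 and -1.20 at day 9 in obstructed kidneys. Sham kidneys had Gcsh at 0.27 and 0.96 at day 1, 1.03 and 0.76 at day 2, 0.56 and 0.91 at day 5, and 0.07 and 0.35 at day 9. Obstructed values were all below 0 and sham values all above 0. Gcsh differed by -1.45 ± 0.11 (adjusted p = 4.50e-08). Gldc, the P protein that decarboxylates glycine, differed by -1.97 ± 0.25 (adjusted p = 7.23e-06), with daily differences of -1.41, -1.55, -1.83 and -3.08 at days 1, 2, 5 and 9. Shmt1, the cytosolic serine hydroxymethyltransferase, differed by -1.07 ± 0.09 (adjusted p = 1.75e-07).

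All 4 methionine and transsulfuration enzymes measured were called lower over days. Cth, cystathionine gamma-lyase, releases cysteine and can form hydrogen sulfide. Cth had log2 ratios of 1.68, 2.36 and 2.45 at day 1, 2.15, 2.16 and 2.29 at day 2, 1.30, 1.89 and 1.18 at day 5, and 1.31, -0.10, -0.12 and 0.35 at day 9 in obstructed kidneys. Sham kidneys had Cth at 3.33 and 3.28 at day 1, 3.28 and 3.09 at day 2, 3.23 and 2.71 at day 5, and 3.10 and 3.02 at day 9. No day overlapped, and S34 and S35 at day 9 were below 0. Cth differed by -1.59 ± 0.17 (adjusted p = 1.82e-06), or 3-fold lower.
Cbs, cystathionine beta-synthase, catalyses the step before Cth. Cbs had log2 ratios of 2.42, 3.10 and 2.38 at day 1, 2.73, 2.72 and 2.54 at day 2, 2.50, 2.62 and 2.19 at day 5, and 2.69, 1.65, 1.92 and 1.87 at day 9 in obstructed kidneys. Sham kidneys had Cbs at 3.12 and 3.39 at day 1, 3.60 and 3.0 at day 2, 2.90 and 3.01 at day 5, and 3.20 and 3.38 at day 9. The groups did not overlap within a day, though at day 1 the obstructed replicate S05 was just below the sham replicate S03. Cbs differed by -0.76 ± 0.14 (adjusted p = 2.25e-04) and passed at day 9 alone. Bhmt, which remethylates homocysteine with betaine, differed by -1.19 ± 0.23 (adjusted p = 5.12e-04), and its relative Bhmt2 by -0.53 ± 0.14 (adjusted p = 0.00527). Bhmt passed at day 9 only and Bhmt2 at days 2 and 9.

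All 7 proline, glutamate and transaminase genes were called lower over days. Got2, the mitochondrial aspartate aminotransferase, serves the malate-aspartate shuttle. Got2 had log2 ratios of 0.82, 0.32 and 0.34 at day 1, 0.28, 0.35 and 0.45 at day 2, -0.01, 0.15 and -0.12 at day 5, and -0.12, -0.50, -0.40 and -0.45 at day 9 in obstructed kidneys. Sham kidneys had Got2 at 0.98 and 1.19 at day 1, 1.12 and 1.11 at day 2, 0.91 and 0.81 at day 5, and 0.73 and 0.89 at day 9. No day overlapped, and obstructed day 9 values were all below 0. Got2 differed by -0.84 ± 0.08 (adjusted p = 2.23e-07).
Prodh, proline dehydrogenase, begins proline breakdown in mitochondria. Prodh had log2 ratios of 3.80, 3.39 and 3.13 at day 1, 3.15, 3.16 and 3.20 at day 2, 2.41, 3.39 and 3.01 at day 5, and 2.74, 2.32, 2.37 and 2.42 at day 9 in obstructed kidneys. Sham kidneys had Prodh at 4.54 and 4.44 at day 1, 4.19 and 4.79 at day 2, 4.56 and 3.76 at day 5, and 4.45 and 4.92 at day 9. The groups did not overlap within a day, and the sham day 5 replicate S32 was the lowest sham value. Prodh differed by -1.45 ± 0.14 (adjusted p = 6.37e-07), or 2.74-fold lower.
Glul, glutamine synthetase, fixes ammonia into glutamine. Glul had log2 ratios of 3.47, 2.58 and 2.15 at day 1, 3.08, 3.04 and 2.87 at day 2, 2.50, 2.87 and 2.89 at day 5, and 2.35, 2.11, 2.18 and 2.25 at day 9 in obstructed kidneys. Sham kidneys had Glul at 3.68 and 4.02 at day 1, 3.57 and 3.73 at day 2, 3.69 and 3.40 at day 5, and 3.22 and 3.31 at day 9. No day overlapped, and the lowest obstructed values were those of day 9 and of S38 at day 1. Glul differed by -0.90 ± 0.13 (adjusted p = 2.99e-05), and its 3 probes by -1.26 to -0.67. Got1, the cytosolic aspartate aminotransferase, differed by -0.86 ± 0.20 (adjusted p = 0.00178), and Glud1, glutamate dehydrogenase, by -0.68 ± 0.17 (adjusted p = 0.00277). Gpt, alanine aminotransferase, differed by -0.70 ± 0.11 (adjusted p = 7.34e-05). Prodh2, the hydroxyproline dehydrogenase, differed by -0.48 ± 0.07 (adjusted p = 3.83e-05) over days, and reached -0.96 at day 9.

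All 9 branched-chain amino acid and propionate enzymes were called lower over days, with a median of -1.06 at day 2 and -1.84 at day 9. At days 2, 5 and 9 all 9 passed, and at day 1 it was 8, without Pccb. Bckdhb is the E1 beta subunit of the branched-chain ketoacid dehydrogenase. Bckdhb had log2 ratios of 0.12, -0.03 and -0.15 at day 1, -0.03, -0.11 and 0.39 at day 2, -0.02, 0.53 and -0.25 at day 5, and -0.31, -0.32, -0.52 and -0.51 at day 9 in obstructed kidneys. Sham kidneys had Bckdhb at 1.35 and 1.62 at day 1, 1.46 and 1.58 at day 2, 1.80 and 1.40 at day 5, and 1.44 and 1.52 at day 9. All obstructed replicates lay below all sham replicates, with S21 at day 5 the highest of them. Bckdhb differed by -1.59 ± 0.10 (adjusted p = 1.06e-08), or 3-fold lower.
Hibadh, 3-hydroxyisobutyrate dehydrogenase, acts in valine breakdown. Hibadh had log2 ratios of 2.43, 2.20 and 2.18 at day 1, 2.09, 2.14 and 2.46 at day 2, 1.64, 1.92 and 1.53 at day 5, and 1.49, 0.92, 0.87 and 1.04 at day 9 in obstructed kidneys. Sham kidneys had Hibadh at 3.0 and 3.17 at day 1, 3.13 and 3.10 at day 2, 2.98 and 2.78 at day 5, and 3.02 and 3.14 at day 9. Obstructed values were lower at days 5 and 9 than at days 1 and 2, and no obstructed value reached a sham value. Hibadh differed by -1.22 ± 0.09 (adjusted p = 2.75e-08).
Ivd, isovaleryl-CoA dehydrogenase, acts in leucine breakdown. Ivd had log2 ratios of 0.99, 1.10 and 0.73 at day 1, 1.12, 1.14 and 1.19 at day 2, 1.04, 1.10 and 0.73 at day 5, and 0.96, 0.36, 0.46 and 0.38 at day 9 in obstructed kidneys. Sham kidneys had Ivd at 1.79 and 2.17 at day 1, 2.26 and 2.22 at day 2, 1.97 and 2.01 at day 5, and 2.15 and 2.37 at day 9. No obstructed value reached a sham value, and the day 9 replicates other than S09 were the lowest. Ivd differed by -1.22 ± 0.09 (adjusted p = 2.98e-08).
Mccc1 and Mccc2, the subunits of methylcrotonyl-CoA carboxylase in leucine breakdown, differed by -1.60 ± 0.14 and -1.31 ± 0.13. Pcca and Pccb, the subunits of propionyl-CoA carboxylase, differed by -1.36 ± 0.13 and -0.92 ± 0.08. Bckdha, the E1 alpha subunit, differed by -1.04 ± 0.10, and Hibch, a hydrolase of valine breakdown, by -0.74 ± 0.06. The highest adjusted p of these 6 was 6.84e-07, so each passed.

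All 4 lysine and tryptophan enzymes were called lower over days, with 0 of 4 passing at days 1 and 2. Haao, 3-hydroxyanthranilate dioxygenase, leads from kynurenine metabolites towards NAD. Haao had log2 ratios of 1.57, 2.35 and 2.07 at day 1, 2.03, 2.31 and 1.47 at day 2, 2.04, 1.68 and 1.01 at day 5, and 1.88, 0.73, 1.20 and 1.01 at day 9 in obstructed kidneys. Sham kidneys had Haao at 2.78 and 3.06 at day 1, 3.72 and 2.51 at day 2, 2.63 and 2.83 at day 5, and 2.91 and 3.22 at day 9. The groups did not overlap on any day. Haao differed by -1.28 ± 0.19 (adjusted p = 5.09e-05), and passed at days 5 and 9.
Aass, aminoadipate-semialdehyde synthase, starts lysine breakdown. Aass had log2 ratios of 8.84, 7.86 and 7.58 at day 1, 8.21, 7.20 and 7.35 at day 2, 7.0, 6.66 and 7.02 at day 5, and 7.35, 5.83, 6.22 and 6.30 at day 9 in obstructed kidneys. Sham kidneys had Aass at 8.49 and 8.36 at day 1, 8.65 and 8.43 at day 2, 7.79 and 7.99 at day 5, and 8.18 and 8.64 at day 9. The groups overlapped at day 1, where S02 was above both sham replicates, and on no other day. Aass differed by -1.07 ± 0.20 (adjusted p = 3.57e-04), and passed at day 9 alone.
Kmo, kynurenine monooxygenase, differed by -0.46 ± 0.14 (adjusted p = 0.0105) and passed at day 5 alone. Kynu, kynureninase, differed by -0.82 ± 0.32 (adjusted p = 0.0419) over days, passed on no single day and overlapped with sham on every day. Kynu missed the threshold when any of 14 replicates was left out singly, with an adjusted p of 0.0501 to 0.139.

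The remaining 5 enzymes hold the D-amino acid oxidases Dao and Ddo, Agxt2, Inmt and Ddc, and 4 were called lower over days. Inmt, indolethylamine N-methyltransferase, methylates amines. Inmt had log2 ratios of -1.01, -1.63 and -1.88 at day 1, -0.56, -0.63 and -0.16 at day 2, 0.04, 0.22 and -0.70 at day 5, and 1.99, -0.84, -0.51 and -0.56 at day 9 in obstructed kidneys. Sham kidneys had Inmt at 0.32 and 1.79 at day 1, 3.05 and 2.11 at day 2, 0.78 and 2.26 at day 5, and 1.81 and 2.55 at day 9. The groups overlapped at day 9 alone, where S09 lay between the sham replicates and the other 3 obstructed replicates lay below 0. Inmt differed by -2.36 ± 0.35 (adjusted p = 4.07e-05), or 5.12-fold lower.
Ddo oxidizes acidic D-amino acids such as D-aspartate. Ddo had log2 ratios of 5.56, 5.31 and 5.24 at day 1, 5.53, 4.86 and 5.14 at day 2, 4.84, 4.58 and 4.82 at day 5, and 4.42, 3.98, 3.97 and 4.52 at day 9 in obstructed kidneys. Sham kidneys had Ddo at 5.91 and 5.49 at day 1, 5.94 and 5.78 at day 2, 5.52 and 5.51 at day 5, and 5.09 and 5.60 at day 9. At day 1 the replicate S02 lay above the lower sham replicate, and on the other days the groups did not overlap. Ddo differed by -0.72 ± 0.11 (adjusted p = 4.52e-05). Dao, which oxidizes neutral D-amino acids, differed by -0.62 ± 0.18 (adjusted p = 0.00915). Ddc, aromatic amino acid decarboxylase, differed by -1.06 ± 0.21 (adjusted p = 4.83e-04) over days.
Agxt2 is a mitochondrial aminotransferase that also degrades dimethylarginines. The Agxt2 groups overlapped on every day, with differences of 0.47, -0.16, 0.20 and -0.37 at days 1, 2, 5 and 9 and 0.04 ± 0.15 (adjusted p = 0.861) over days.

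**Figure D2:**
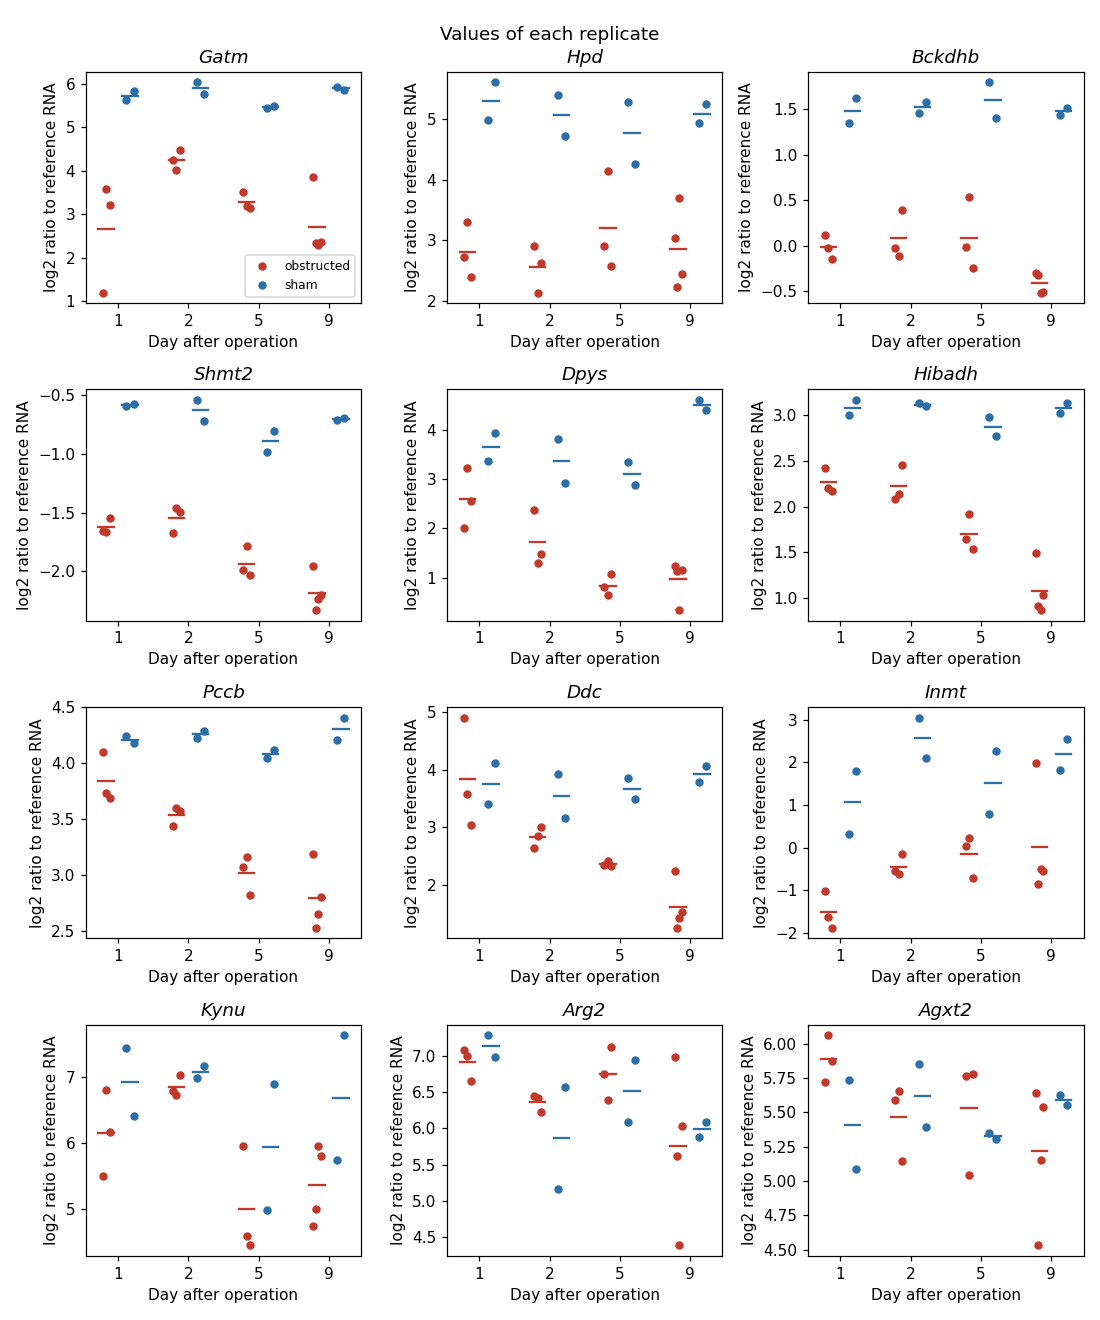
Log2 ratio to reference RNA (y axis, scaled per gene) in each obstructed replicate (left, red) and sham replicate (right, blue) at each day (x axis) for 12 members. Lines are group means. Bckdhb, Shmt2 and Hibadh are apart on every day, and Arg2, Agxt2 and Kynu overlap.

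The effect of obstruction was tested for a change over time through the difference of the daily differences. Between day 9 and day 1, 6 members were called with a lower day 9 difference and 0 with a higher one, where 4.22% of all genes were called lower and 7.54% higher. Dpys had differences of -1.06, -1.64, -2.27 and -3.54 at days 1, 2, 5 and 9, and its day 9 minus day 1 difference was -2.48 ± 0.54 (adjusted p = 0.00888). The mean Dpys ratio of obstructed kidneys was 2.60 at day 1, 0.84 at day 5 and 0.96 at day 9. The sham ratios were 3.35 and 2.87 at day 5, and 4.60 and 4.41 at day 9. The step in Dpys from day 5 to day 9 thus came with higher sham ratios, not with a lower obstructed mean. Ddc, which decarboxylates DOPA to dopamine in the proximal tubule, had differences of 0.09, -0.70, -1.30 and -2.30 at days 1, 2, 5 and 9.
At day 1 the Ddc ratios were 4.90, 3.58 and 3.04 in obstructed kidneys, against 3.40 and 4.11 in sham kidneys. At day 9 they were 2.25, 1.27, 1.43 and 1.54 in obstructed kidneys, against 3.78 and 4.06 in sham kidneys. The groups overlapped at day 1 and were apart at day 9, and the day 9 minus day 1 difference was -2.39 ± 0.58 (adjusted p = 0.0156).
Cth had a day 9 minus day 1 difference of -1.56 ± 0.48 (adjusted p = 0.0484), Hibadh of -1.19 ± 0.24 (adjusted p = 0.00714), Pccb of -1.14 ± 0.24 (adjusted p = 0.00727) and Prodh2 of -0.68 ± 0.20 (adjusted p = 0.0366). In 43 of 47 members the day 9 difference was below the day 1 difference, and in 39 the lowest daily difference was that of day 9. No share of all genes, or of all lowered genes, stands beside these counts. The median day 9 minus day 1 difference was -0.62 over the members and 0.01 over all genes. The test of any difference between days called 3 members, Dpys, Pccb and Hibadh, against 5.21% of all genes, and 13 members (27.7%) had an unadjusted p under 0.05, against 21.5% of all genes. These counts rested on single replicates. The day 9 minus day 1 count was 20 without the obstructed replicate S09 and 2 without the sham replicate S33. Here too the shares of all genes in the refits are not given. With Xist level as a block it was 7, where Cth missed the threshold (adjusted p = 0.0554) and Fah (0.0356) and Aass (0.0227) passed. The count of any difference between days was 13 without S09, and 0 or 1 without S03, S05, S06, S10, S30, S32, S33, S34, S35, S36 or S39 left out singly. The sham kidneys differed between days in 0 members by the same limma test. In that test 2 members (4.26%), Dpys and Hgd, had an unadjusted p under 0.05, against 5.55% of all genes.

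**Figure D3:**
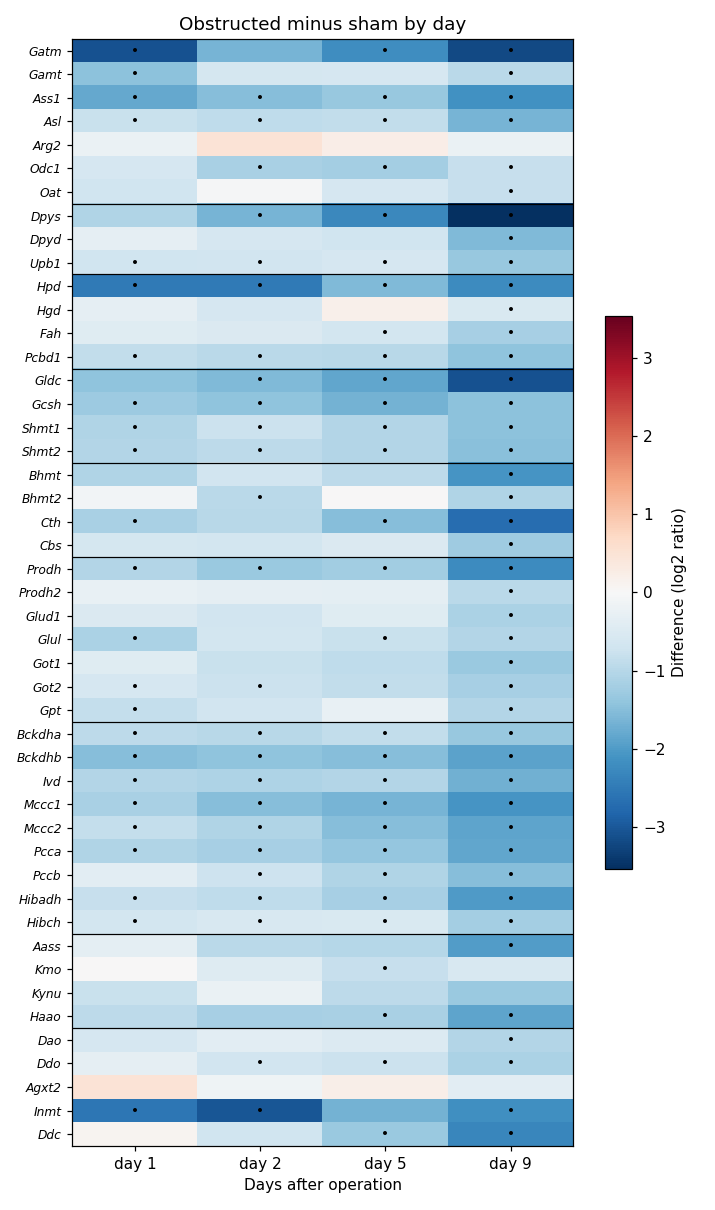
Obstructed minus sham difference (log2 ratio, colour scale) for each of the 47 members (y axis, by role) at days 1, 2, 5 and 9 (x axis). Dots mark calls at an adjusted p under 0.05. The dots number 24, 25, 30 and 43 from left to right, and Dpys at day 9 is the darkest cell at -3.54.

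Other genes of the same pathways moved in both directions. Of 116 listed, 101 were tested, with 67 called lower over days, 10 higher and a median difference of -0.61. Around arginine and polyamines, Ddah2, which degrades dimethylarginines, at 1.02 ± 0.07 and Smox, spermine oxidase, at 1.57 ± 0.14 were higher, and Ckb, brain creatine kinase, at -0.66 ± 0.08 and Sms, spermine synthase, at -0.79 ± 0.10 were lower. For pyrimidines, Upp1, uridine phosphorylase, was higher at 1.07 ± 0.32, and the enzymes that use beta-alanine and malonate semialdehyde, Abat at -1.69 ± 0.11 and Aldh6a1 at -1.61 ± 0.11, were lower. In the aromatic pathways Qdpr, which recycles biopterin, was at -1.39 ± 0.12 and Gstz1, maleylacetoacetate isomerase, at -1.08 ± 0.10, both lower.

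For glycine, Gcat, which splits aminoketobutyrate, was at -1.39 ± 0.09 and Dld, the lipoamide dehydrogenase shared by the glycine system and ketoacid complexes, at -0.98 ± 0.07. For sulfur, Suox, sulfite oxidase, was at -0.97 ± 0.06 and Adi1, of methionine salvage, at -0.70 ± 0.06. All 4 were lower. Near proline and aspartate, Aldh18a1, the proline synthetic enzyme, at 1.44 ± 0.09 and Asns, asparagine synthetase, at 1.55 ± 0.11 were higher, whereas Aldh4a1, next after Prodh in proline breakdown, at -1.50 ± 0.11 and Aspa, aspartoacylase, at -1.72 ± 0.12 were lower. For propionate and branched chains Mmut, methylmalonyl-CoA mutase, was at -1.42 ± 0.09 and Acadsb, a short branched-chain acyl-CoA dehydrogenase, at -1.06 ± 0.08. In tryptophan and lysine breakdown Afmid, kynurenine formamidase, was at -1.51 ± 0.12 and Gcdh, glutaryl-CoA dehydrogenase, at -1.29 ± 0.10, while Maoa, monoamine oxidase A, was higher at 0.45 ± 0.06. Each gene named in these lists passed at an adjusted p under 0.05.

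Markers of tubular cells were mostly lower, those of macrophages and fibroblasts were higher, and their part in the module's change was not tested. In bulk tissue, fewer cells of a type and less RNA per cell cannot be told apart. The mean of the 47 members per replicate ran from 1.61 to 2.75 in obstructed kidneys, with a median of 2.41, and from 3.27 to 3.68 in sham kidneys, with a median of 3.49. The mean of 19 proximal tubule markers ran from 4.01 to 5.06 in obstructed kidneys and from 5.27 to 5.63 in sham kidneys. For both means the groups did not overlap.
Of those 19 markers, 17 were called lower over days and 0 higher, with a median of -0.66, and 5 were at least 2-fold lower. By day, 6, 2, 4 and 17 of the 19 were called lower at days 1, 2, 5 and 9. Of the 47 members, 24, 25, 30 and 43 were called lower on those days, and of all genes 9.47%, 6.49%, 11.7% and 20.3%. The proximal tubule marker medians were -0.49, -0.57, -0.56 and -1.01 on those days, so the markers were lower also on days with few calls. The member medians were -0.82, -0.79, -0.94 and -1.45. The lists differ in size, and a difference between them was not tested. Lrp2 differed by -0.66 and Slc34a1 by -0.38. Of the distal tubule and collecting duct markers 10 of 11 were lower, with a median of -0.52, and of the thick ascending limb markers 4 of 6, with a median of -0.33. All 12 macrophage markers were higher, with a median of 1.94, and all 9 fibroblast markers, with a median of 1.89. The macrophage mean ran from 0.43 to 2.49 in obstructed kidneys and from -0.66 to 0.04 in sham kidneys. Of the neutrophil markers 4 of 5 were higher, and of the lymphocyte markers 3 of 8 were higher and 1 lower. Podocyte markers had 2 of 5 lower and 1 higher, and endothelial markers 2 of 6 lower.

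**Figure D4:**
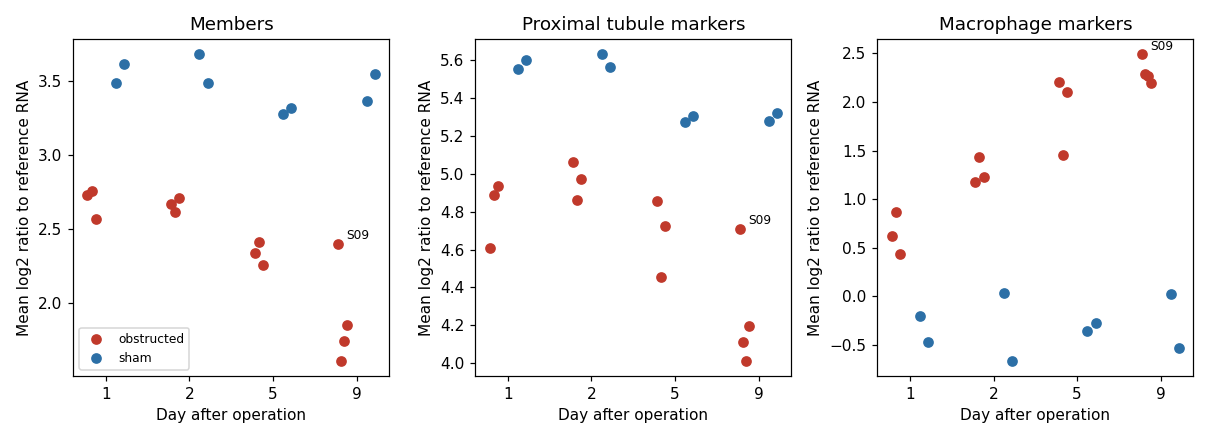
Mean log2 ratio to reference RNA (y axis) over the 47 members, 19 proximal tubule markers and 12 macrophage markers in each obstructed (left, red) and sham (right, blue) replicate, by day after operation (x axis). At day 9 the replicate S09 is above the other obstructed replicates in the means of members and proximal tubule markers, at 2.40 and 4.71, and at 2.49 it is also above them, farther from sham, in the mean of macrophage markers.

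The labels place the array images in folders, 4 arrays in folder 1 and 18 in folder 2. Folder 1 holds the sham day 1 replicate S06, the obstructed day 5 replicates S19 and S21 and the sham day 5 replicate S22. All obstructed day 1 arrays are in folder 2, so at day 1 the folder partly coincides with the operation. Within folder 1 at day 5, with 2 obstructed and 1 sham replicate, 44 of 47 members were lower, with a median difference of -0.90. Within folder 2, with 1 of each, 43 were lower, with a median of -1.16. Over all genes the median difference was 0.02 within folder 1 and -0.02 within folder 2. The 13 members with several probes had all their tested probes called lower over days, and the 10 probes of Gamt differed by -0.94 to -0.88.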

How the data were processed

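Kidney RNA from obstructed and sham C57BL/6 mice was compared with a mouse universal reference RNA on 2-colour arrays, per the labels. The deposited values, read as log10 ratios of kidney (Cy5) over reference (Cy3), ran from -3.11 to 4; the log base was inferred from the values. No label names the scanner software, background correction or dye normalization, which are not given in the sources used. Values were multiplied by 3.32 to log2, exact zeros were treated as missing, and the array median was subtracted. The 29365 probes kept had a value on 18 or more of the 22 arrays, with every group represented. Probes were named through the platform annotation, which gave 1 gene for 33653 probes and several for 56, and several probes of 1 gene were combined by averaging after taking off, then adding back, their mean level, giving 17039 genes.

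The labelled day and operation set the groups. S03L and S03R were averaged as 1 replicate because they share a number. Their r was 0.967, against a median of 0.961 over all pairs of sham arrays, this pair included. The r does not settle whether they come from 1 animal. A single fit of 8 group means (limma 3.58.1 in R 4.3.3) with eBayes and Benjamini-Hochberg adjustment over all genes gave each contrast, called at 0.05. The fit was also run on simulated data with independent normal noise per gene, and nothing reported here rests on that run. The members, lists and tests were chosen with earlier results of these data known. Values in every sample are given for the 2 members of lowest p in each role, 3 where a role has 7 or more. Alternatives are in the closing section. Promoter letters are RefSeq's.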

Additional observations from a re-analysis of the deposited data

Results flagged for a closer look

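In the 4 obstructed day 9 replicates, 1 value stood far from the others in 7 members, by Dixon's test, which chance flags in about 1 of 20 groups. In 6 of the 7 it was S09 that lay high. Gatm, of creatine synthesis, was at 3.87 in S09, against 2.30 to 2.35 in the other 3. Ass1, of arginine synthesis, was at 2.88, against 1.57 to 1.66. Gldc, of glycine cleavage, was at 3.37, against 1.95 to 2.08. The leucine enzymes Ivd and Mccc1 were at 0.96 and 1.53 in S09, against 0.36 to 0.46 and 0.35 to 0.50. Inmt was at 1.99, against -0.84 to -0.50, and there S09 lay between the sham replicates. In Dpys the replicate S35 was low at 0.34, against 1.13 to 1.23.

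The effect of obstruction differed between day 9 and day 1 in 6 members by the interaction test of the limma fit, each with a lower difference at day 9. The day 9 minus day 1 differences were -2.48 in Dpys, -2.39 in Ddc, -1.56 in Cth, -1.19 in Hibadh, -1.14 in Pccb and -0.68 in Prodh2. Without S09 the 6 also passed, among 20 members in all. Without the sham replicate S33 only 2 members were called, and with Xist level as a block Cth missed the threshold (adjusted p = 0.0554).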

How the results depend on the processing

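Over days, 1654 of 1692 alternative values of single members kept their direction and call, and 40 of 47 members did so under all 15 other settings and 21 left-out replicates. The call was lost in 26, by Kynu in 19 and otherwise by Hgd, Bhmt2, Dao or Kmo, with quantile normalization, S03 as 2 replicates, arrays marked L only or folder 2 only; the cause was not tested. The 12 sign changes were all in members that passed in no direction. Arg2 turned to -0.034 with array weights, -0.20 without S06R, S08L, S09L and S21L, -0.091 with Xist level as a block, -0.11 without S08, -0.034 without S09 and -0.040 without S22, and leaving out single replicates gave up to 0.25, without S39. Agxt2 turned to -0.015 with no subtraction of the median, -0.015 with zeros kept, -0.026 with arrays marked L only, -0.017 with the Xist block, -0.045 without S06 and -0.022 without S39, and leaving out single replicates gave up to 0.12, without S03.

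Counts of members called, given without the shares of all genes in those fits, moved by over 1.5 times as follows. At day 1 they were 4 with arrays marked L only, 7 in folder 2 only, 15 at 2-fold and 1 with each day fitted by itself. At day 2 they were 14 with arrays marked L only and 13 at 2-fold. At day 5 there were 11 in folder 2 only. Over days, at 2-fold, there were 24, and 30 other pathway genes. Between day 9 and day 1 there were 13 with no median subtraction, 13 with quantile normalization, 12 with zeros kept, 12 with S03 as 2 replicates, 2 in folder 2 only, 15 with array weights and 11 without the 4 arrays. Members differing between days were 6 with quantile normalization, 0 with arrays marked L only, 1 with the folder as a block, 0 in folder 2 only, 8 with array weights and 7 without the 4 arrays. The smaller numbers of arrays in the L only, folder and single day fits come with their construction; other causes were not tested.

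Leaving out each replicate gave 8 to 27 members at day 1, 10 to 30 at day 2, 19 to 33 at day 5, 37 to 44 at day 9, 44 to 45 over days, 2 to 20 between day 9 and day 1, 0 to 13 between any days, 0 between sham days and 75 to 78 other pathway genes. Over days, all genes split into 5192 lower and 4057 higher with no median subtraction and 4936 and 3608 with quantile normalization, against 4439 and 4612 as reported. With no median subtraction the all-gene median at day 5 was -0.11 and the member median -1.05, and with quantile normalization they were -0.11 and -1.44 at day 9. No paired analysis was possible because the groups share no replicate number. Signal over background was not analysed here.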

Other observations

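Arg1, the cytosolic arginase and no member of the module, was 3.36 ± 0.49 log2 higher over days in obstructed kidneys, with differences of 3.89, 3.41, 3.17 and 2.95 at days 1, 2, 5 and 9, while Arg2 was not called. Of the genes around polyamines, Sat1, which acetylates spermidine and spermine, was higher by 0.63 ± 0.09 and Srm, spermidine synthase, by 0.32 ± 0.09. Gnmt, which methylates glycine, differed by -1.44 ± 0.13, and Acmsd, which diverts tryptophan metabolites away from NAD, by -1.67 ± 0.38. These genes passed at an adjusted p under 0.05 and were chosen after their values were seen.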
